A study of Homo sapiens with 18 samples.

Results

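In AMO1, a human multiple myeloma line, the step from 100 nM to 1000 nM of the inhibitor YKL-5-124 was compared over 6 libraries of the 18 in the series, 3 at each dose. The members were taken by their labels alone, as the AMO1 libraries marked low dose and high dose after 24 h. YKL-5-124 is a covalent inhibitor of the kinase CDK7. All groups were grown in RPMI medium with 10% FBS in 12-well plates and exposed for 24 h, the controls to DMSO, and their total RNA was made into QuantSeq libraries, which read the 3′ ends of transcripts. The AMO1 DMSO group (3 libraries) and the same 3 groups of a second line labelled XG1 (9 libraries) place the step, and the AMO1 DMSO libraries also enter the estimate of the spread behind its p-values. The labels number the replicates without saying whether they were separate cultures, so every p-value measures the spread between these libraries, which may be technical. The step described is that of 1 line.

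CDK7, with cyclin H (CCNH) and MNAT1, forms the CDK-activating kinase. It phosphorylates the activation loops of the cell cycle kinases, which in turn release E2F transcription factors from RB, and as part of TFIIH it phosphorylates the tail of RNA polymerase II. A CDK7 inhibitor can therefore act on the cell cycle through its kinases and on transcription through the polymerase. Myeloma cells are malignant plasma cells and depend on plasma cell regulators such as IRF4.

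The summed FPKM of all genes was 922193, 983439 and 919237 in the 3 libraries at 100 nM and 686266, 431965 and 683618 at 1000 nM. The 1000 nM mean was 63.8% of the 100 nM mean. No library of one dose overlapped the other, which gives the smallest p that an exact two-sided permutation test of 3 against 3 allows, 0.1. Replicate 2 stood below the other libraries at 1000 nM, and without it the higher dose stood at 72.7% of the lower. In bulk RNA, fewer cells and less RNA per cell cannot be told apart. The libraries carried plasma cell genes at both doses. SDC1, the syndecan that marks plasma cells, stood at 7801 ± 438 FPKM at 100 nM and 5468 ± 1189 at 1000 nM (mean ± SD, n = 3 in each group throughout), while all 16 myeloid markers stayed under 1 FPKM in every AMO1 library. Spearman correlations across genes were 0.955 to 0.962 within 100 nM, 0.952 to 0.958 within 1000 nM and 0.942 to 0.954 between the doses.

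Because most genes stood lower at 1000 nM, each step is given on 2 scales. The deposited scale is log2(FPKM + 1), where the median gene of the 10503 tested stepped by −0.43. The relative scale first divides each library by its median-ratio size factor, so that a step of 0 is that of the median gene. Both scales understate the change of genes of low FPKM, and levels cannot be compared between genes. Unless another scale is named, a step is a log2 difference, 1000 nM minus 100 nM, on the relative scale, and an adjusted p comes from limma with Benjamini-Hochberg adjustment over all genes tested and a threshold of 0.05.

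Beyond the shift of the median gene, the DNA replication and cell division programme kept falling with dose, while p53 targets and immediate-early genes stood higher. Relative to the median gene 439 genes were lower at 1000 nM (4.18% of those tested) and 175 were higher (1.67%), 5.85% in either direction, and 2370 had an unadjusted p under 0.05. The lower genes included 84 of the 225 tested members of 7 cell cycle and histone lists, and the higher genes 2 of them. The quartiles of all steps were −0.17 and 0.17. List counts below are to be read beside 4.18% lower and 1.67% higher. On this scale all 3 libraries at 1000 nM were below all 3 at 100 nM in 1407 genes (13.4%). They were above in 1165 (11.1%), so a lack of overlap alone was common. For the deposited scale, where the summed FPKM did not overlap either, this share was not counted. On the deposited scale 2460 genes were lower (23.4%) and 22 were higher (0.209%), in all 2482, which became 665, 589 and 440 without 100 nM replicates 1, 2 and 3. With libraries scaled to equal summed FPKM, which puts the median gene at 0.13, 178 were lower and 316 higher, so the share of higher genes depended on the scaling (28.5% by size factors, 64.0% by sums). Leaving out 1 library at a time gave 299 (without 100 nM replicate 1) to 534 called genes (without 1000 nM replicate 1) on the relative scale, against 614 with all libraries. A fit over the 6 libraries of the 2 doses alone, with no DMSO library, called 212. The other counts when 1 library was left out were 363 and 396 without 100 nM replicates 2 and 3, and 384 and 373 without 1000 nM replicates 2 and 3.

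**Figure D1:**
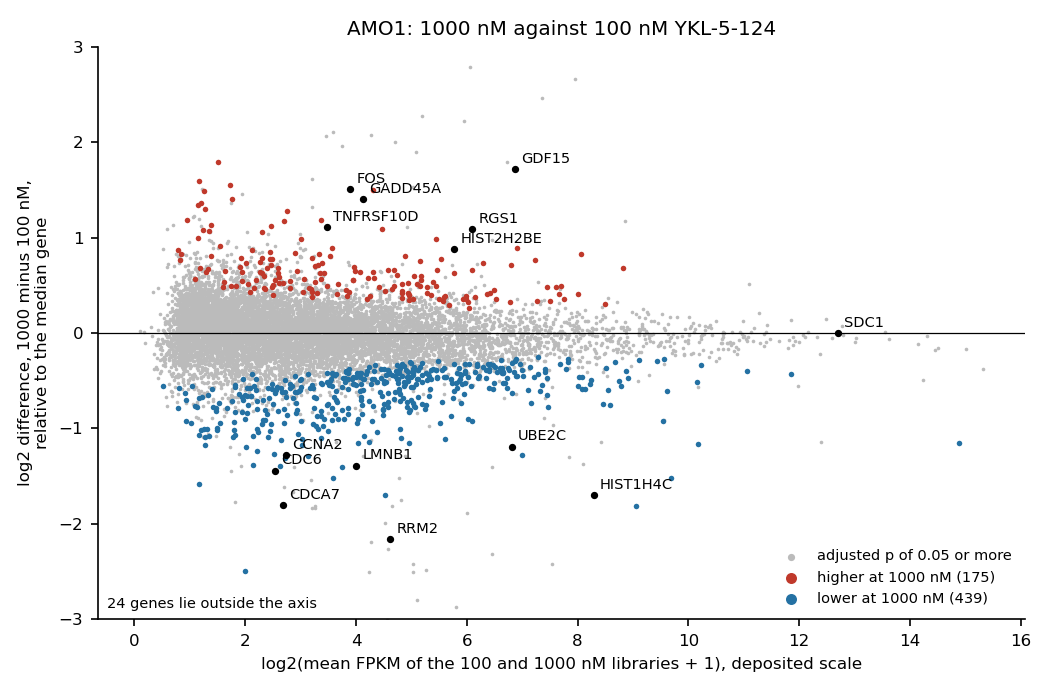
Each point is 1 of the 10503 genes tested in AMO1, with the log2 of its mean FPKM at the 2 doses plus 1 on the horizontal axis and its log2 step relative to the median gene on the vertical axis; blue (439) and red (175) points passed an adjusted p of 0.05, and 24 genes lie outside the axis. RRM2 and HIST1H4C lie far below the band of grey points and GDF15 far above it, while SDC1 lies on the line.

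The gene that fell furthest among those named by level and overlap was RRM2, the small subunit of ribonucleotide reductase, which makes DNA precursors. Its FPKM was 37.6, 39.3 and 46.8 at 100 nM and 6.98, 4.87 and 5.66 at 1000 nM. These deposited values did not overlap between the doses, a separation whose share over all genes was not counted. The step was −2.16 (SE 0.11, adjusted p = 4.6e-05), 4.47-fold on the log2(value + 1) scale. DMSO libraries averaged 196 FPKM, so each dose added a fall. CDCA7, a chromatin protein that works with the remodeller HELLS, stood at 10.97, 7.95 and 9.17 FPKM and then at 1.61, 0.668 and 2.10 (step −1.80, SE 0.18). ASF1B, a histone chaperone of the replication fork, went from 18.4, 15.4 and 19.5 to 5.61, 2.02 and 4.74 (−1.52, SE 0.17). The 12 genes at each end were chosen for no overlap between the doses on the relative scale. Their separation there was fixed by the choice and is no further support. FABP5, a fatty acid carrier, stepped by −1.70 (SE 0.29) and LMNB1, the nuclear lamin B1, by −1.39 (SE 0.16). FABP5 has near-identical pseudogenes, and its reads cannot be assigned with certainty.

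Of the 12 genes with the most negative steps, CDC6, SPC25, FBXO5, CDC25A and KIFC1 also serve the cell cycle. CDC6, which loads the replicative helicase, went from 8.01 ± 2.06 to 1.54 ± 0.0789 FPKM. FBXO5, the inhibitor that holds back the anaphase-promoting complex, went from 5.66 ± 0.603 to 1.15 ± 0.552. Their steps were −1.44 (SE 0.16) and −1.38 (SE 0.16). Among the 12, 11 kept their call under all 15 other settings of the relative fit. The exception was SPC25, a kinetochore protein whose gene overlaps NOSTRIN. Its call was lost in 6 settings, with an adjusted p of up to 0.0864 in limma without 100 nM replicate 1.

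**Figure D2:**
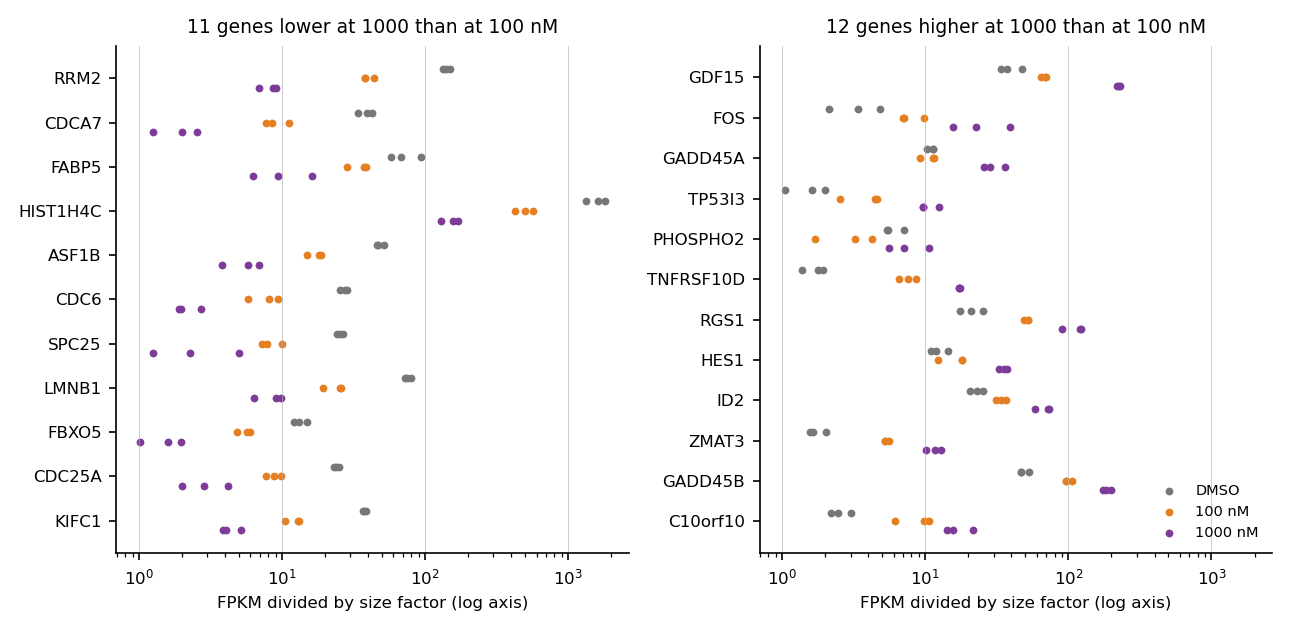
FPKM divided by the library's size factor (log axis) of 11 genes with the most negative and the 12 with the most positive steps, 1 point per library for DMSO (grey), 100 nM (orange) and 1000 nM (purple). In each row the 3 purple points lie on one side of the 3 orange points, which the choice of genes required. On the left the order runs from DMSO to 1000 nM throughout.

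Genes that license and fire replication origins fell together. Of 27 in the files 26 were tested and 15 were lower on the relative scale, 0 higher (by limma also 0 at an unadjusted p under 0.05), with a median step of −0.68 against 0 for all genes. On the deposited scale 18 were lower. The helicase subunit gene MCM4 was at 10.8, 10.0 and 12.7 FPKM at 100 nM and at 3.97, 2.19 and 3.13 at 1000 nM. MCM7, which overlaps AP4M1, was at 30.2, 27.2 and 32.1 and then at 11.3, 7.71 and 10.4. In both genes all 3 deposited values at 1000 nM were below all 3 at 100 nM, a separation whose share over all genes was not counted. The steps were −1.17 (SE 0.11) and −1.03 (SE 0.10). CDT1, which brings the helicase to origins with CDC6, stepped by −1.03 (SE 0.18), and CDC45, which activates it, by −1.07 (SE 0.18). Without 1 library the count was 10 to 12, lowest without 100 nM replicate 2, and the fit over the 6 libraries gave 6.

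The machinery of the fork and its nucleotide supply showed the same direction. All 39 members were tested, 17 were lower and 0 higher (limma, 0 also at an unadjusted p under 0.05), and the median step was −0.49. PCNA, the sliding clamp, went from 48.8, 42.2 and 45.1 FPKM to 19.3, 8.76 and 14.998. These deposited values did not overlap, a separation whose share over all genes was not counted. The step of PCNA was −1.15 (SE 0.15, adjusted p = 0.0038 in limma). TK1, which salvages thymidine, stepped by −1.01 (SE 0.13), the chromatin assembly subunit CHAF1A by −0.94 (SE 0.14) and the flap nuclease FEN1 by −0.78 (SE 0.16). The count was 10 without 100 nM replicate 1 or 2 or 1000 nM replicate 2, 8 in the fit over the 6 libraries and 9 with libraries scaled to equal sums.

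Among the regulators of the G1 to S passage the fall was uneven. Of 26 tested members 8 were lower and 0 higher (limma, 0 also at an unadjusted p under 0.05), with a median of −0.29 and a range from −1.32 to 0.36. The phosphatase gene CDC25A, which frees the S phase kinases, went from 9.73, 7.97 and 9.36 FPKM to 1.62, 1.53 and 3.44 (step −1.32, SE 0.18). CDK2, a kinase that CDK7 activates, went from 43.7, 42.5 and 42.8 to 19.8, 11.7 and 19.3 (−0.82, SE 0.09). In CDK2 the doses were fully apart on the deposited scale, where the share of all genes apart was not counted. CDC25A was among the genes chosen for no overlap on the relative scale. The transcription factors E2F1 (−1.12, SE 0.23, adjusted p = 0.022 in limma) and E2F2 (−0.96, SE 0.12) and the cyclin gene CCNE1 (−1.003, SE 0.15) were lower too. E2F1 was no longer called without 100 nM replicate 1 or without 100 nM replicate 3. CCND1, the D-type cyclin gene, was at 5.74 ± 1.04 and 3.12 ± 0.739 FPKM, which did not pass (−0.29, 95% interval −0.58 to −0.01).

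Promoter sequences from RefSeq (GRCh38.p14) were searched for E2F motifs over all members of the 3 lists, fallen or not. The window ran from 250 bases before to 50 after the start, and 2 motifs were searched on both strands, TTTCCCGC and TTTGGCGC. At least one was present in 9 of the 22 origin promoters found in the table (40.9%), 9 of 34 fork promoters (26.5%) and 6 of 23 promoters of G1 to S regulators (26.1%). Of all 15843 protein-coding promoters 3.06% held one, and of 41 promoters of oxidative phosphorylation genes, a list without a call, 7.32%. A match of letters is a description and does not show a bound site. The 100 bases before the start are shown for 4 fallen genes with a match, with the motif in capitals and the promoter strand read 5′ to 3′. They are CDCA7 (chr2:173354772-173354871, plus strand), the helicase partner gene GINS2 (chr16:85688955-85689054, minus strand), PCNA (chr20:5126623-5126722, minus strand) and CDC25A (chr3:48188418-48188517, minus strand). CDCA7 is outside the 3 lists and comes from that of DNA methylation and polycomb, for which no share was counted.
CDCA7: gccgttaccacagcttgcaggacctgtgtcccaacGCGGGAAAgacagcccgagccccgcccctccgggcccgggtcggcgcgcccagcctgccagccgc
GINS2: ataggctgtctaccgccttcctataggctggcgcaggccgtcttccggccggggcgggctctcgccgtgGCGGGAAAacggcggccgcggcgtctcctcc
PCNA: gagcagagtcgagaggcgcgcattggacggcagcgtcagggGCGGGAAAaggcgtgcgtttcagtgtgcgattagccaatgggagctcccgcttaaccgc
CDC25A: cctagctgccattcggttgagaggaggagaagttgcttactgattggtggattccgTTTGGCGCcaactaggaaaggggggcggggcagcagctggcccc
GINS2 stood at 23.4 ± 2.03 FPKM at 100 nM and 7.18 ± 2.61 at 1000 nM (step −1.15, SE 0.13). Its gene overlaps GSE1. The motif lies 57 bases before the start in CDCA7, 23 in GINS2, 51 in PCNA and 36 in CDC25A.

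Genes of mitotic entry fell with the S phase genes. Of 25 tested 13 were lower and 0 higher (limma, 0 also at an unadjusted p under 0.05), all 25 steps were negative and the median was −0.52. Cyclin A2 (CCNA2), the partner of CDK2 and CDK1, was at 9.07, 8.36 and 9.93 FPKM at 100 nM and at 2.56, 1.72 and 2.28 at 1000 nM (step −1.28, SE 0.09). AURKB, the kinase of the chromosomal passenger complex, was at 79.6, 65.8 and 72.4 and then at 26.8, 18.3 and 24.0 (−1.11, SE 0.10). CDK1, the mitotic kinase that CDK7 activates, was at 13.6, 13.8 and 15.5 and then at 5.80, 3.69 and 5.61 (−0.90, SE 0.08). No library of one dose overlapped the other in these 3 genes, as in 13.4% of all genes in this direction on the relative scale. Cyclin B1 (CCNB1, −0.76, SE 0.14) and its relative CCNB2 (−0.52, SE 0.09), the passenger protein survivin (BIRC5, −0.85, SE 0.08) and the kinase MELK (−1.19, SE 0.14) also fell. The fit over the 6 libraries called 8 of the list.

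In the genes of chromosome structure and anaphase 14 of 27 tested members were lower and 0 higher, with a median of −0.59. TOP2A, the topoisomerase that untangles sister chromatids, went from 24.6, 24.8 and 32.3 FPKM to 9.82, 6.12 and 8.62 (step −1.15, SE 0.10). UBE2C, the ubiquitin carrier of the anaphase-promoting complex, stepped by −1.19 (SE 0.08) and the histone variant gene H2AFZ by −0.93 (SE 0.09), with all 3 libraries lower at 1000 nM in each. Kinetochore, spindle and kinesin genes were lower in 14 of 45 tested cases and higher in 0, with a median of −0.47. Among them the kinesin gene KIFC1 went from 13.0, 13.4 and 11.2 to 3.31, 2.78 and 3.21 (−1.29, SE 0.12) and the centromere chaperone gene HJURP from 5.79 ± 1.39 to 1.59 ± 0.572 (−1.04, SE 0.18). This last count fell to 2 in the fit over the 6 libraries, to 6 without 100 nM replicate 1 or 3, and to 9 without 1000 nM replicate 2 or 3. For both lists limma gave 0 higher members at an unadjusted p under 0.05 as well.

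The promoters of these mitotic lists carried another element more often. The cell cycle homology region TTTGAA was present on either strand in 10 of 18 mitotic entry promoters (55.6%), 29 of 42 kinetochore and spindle promoters (69%) and 14 of 24 chromosome and anaphase promoters (58.3%), against 12.1% of all protein-coding promoters. It was present in 1 of 22 origin promoters (4.55%), and the E2F motifs in 0 of the 18 mitotic entry promoters. CCAAT stood in 31 of the 42 kinetochore and spindle promoters (73.8%) and in 36.4% of all. The 100 bases before the start are printed for 4 fallen genes with a match, capitals marking TTTGAA or its reverse complement TTCAAA. They are CKS2, a small CDK-binding protein (chr9:89311095-89311194, plus strand), CCNB2 (chr15:59105046-59105145, plus strand), the kinetochore gene ZWINT (chr10:56361260-56361359, minus strand) and MKI67, the proliferation marker Ki-67 (chr10:128126424-128126523, minus strand).
CKS2: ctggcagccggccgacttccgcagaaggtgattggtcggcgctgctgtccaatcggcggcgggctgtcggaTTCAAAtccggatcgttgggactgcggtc
CCNB2: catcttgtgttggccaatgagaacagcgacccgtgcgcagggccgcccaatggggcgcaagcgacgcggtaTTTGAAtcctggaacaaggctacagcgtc
ZWINT: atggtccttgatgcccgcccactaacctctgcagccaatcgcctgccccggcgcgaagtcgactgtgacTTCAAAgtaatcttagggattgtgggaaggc
MKI67: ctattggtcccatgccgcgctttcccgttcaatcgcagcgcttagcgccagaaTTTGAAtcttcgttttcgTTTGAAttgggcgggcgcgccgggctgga
The element lies 23 bases before the start in CKS2 and CCNB2, 25 in ZWINT, and 41 and 23 in MKI67, which has 2 copies. CKS2 stepped by −0.78 (SE 0.13), ZWINT by −0.81 (SE 0.15) and MKI67 by −0.73 (SE 0.14).

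Replication-dependent histone genes moved both ways. Of 38 tested 4 were lower and 2 were higher, and the median was −0.12. HIST1H4C, a histone H4 gene, was at 489, 591 and 454 FPKM at 100 nM and at 138, 69.3 and 128 at 1000 nM (step −1.70, SE 0.15). HIST2H2BE, an H2B gene, was at 41.3, 47.0 and 51.3 and then at 65.5, 45.9 and 70.1. Its deposited levels overlapped, and it was higher relative to the median gene (0.88, SE 0.08) with no pass on the deposited scale (0.35, adjusted p = 0.19 in limma). HIST1H1C, a linker histone gene, was at 418 ± 19.5 and 482 ± 150 (0.69, SE 0.11). HIST1H2AB (−1.58, SE 0.22), HIST1H1B (−1.07, SE 0.19) and HIST2H2AC (−0.90, SE 0.21) completed the lower genes, of which 2 remained in number without 100 nM replicate 1. HIST1H2AB read 2.41, 1.52 and 3.31 FPKM and then 0.0619, 0.0576 and 0.0725, values near the floor of the files. It passed the filter on low values only through the groups in which it was high. Reads of such near-identical genes, and of transcripts without a poly(A) tail, cannot be assigned with certainty in 3′ libraries.

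Part of the DNA repair and DNA methylation genes were lower. Homologous recombination and Fanconi genes were lower in 6 of 32 tested cases and higher in 0 (limma, 1 at an unadjusted p under 0.05), with 25 negative steps and a median of −0.23. The lower count was 2 in the fit over the 6 libraries and 3 with equal sums. EXO1, a nuclease that resects DNA ends, was at 2.20 ± 0.531 and 0.397 ± 0.169 FPKM (−1.02, SE 0.17) and the checkpoint kinase CHEK1 at 3.56 ± 0.53 and 1.21 ± 0.0534 (−0.71, SE 0.13). At 1000 nM the mean of EXO1 lay under the 1 FPKM of the filter. Between the 2 doses EXO1 thus passes it mainly through the group in which it is high, and its step is no support for a difference. In mismatch, excision and end-joining repair MSH6 (−0.71, SE 0.15) and NTHL1 (−0.66, SE 0.11) were the 2 of 31 called. That is near the 4.18% of all genes called lower, and the median was −0.04, so this list as a whole did not stand out. MSH6 was not called without 100 nM replicate 2 or 3 or 1000 nM replicate 2, in the fit over the 6 libraries or with equal sums. In the 22 tested genes of DNA methylation and polycomb the 3 called were CDCA7, its partner HELLS (−0.83, SE 0.13) and UHRF1, which reads hemimethylated DNA (−0.92, SE 0.16).

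The p53 target genes stood higher at 1000 nM. Of 37 tested 13 were higher and 1 was lower relative to the median gene, and the median step was 0.34, while the deposited median was −0.17. GDF15, a secreted stress cytokine, was at 68.0, 72.5 and 68.6 FPKM at 100 nM and at 179, 122 and 189 at 1000 nM. The groups were apart on the deposited scale as well as on the relative one, where the choice of genes required it. On the deposited scale the share of all genes apart was not counted. The relative step was 1.72 (SE 0.11, adjusted p = 0.00018) and the deposited step 1.19 (adjusted p = 0.0048, both limma). GADD45A, a growth arrest and DNA damage gene, was at 11.2, 9.56 and 12.4 and then at 29.3, 15.1 and 21.3, beside a DMSO mean of 15.4. Before scaling, where that share was not counted, no library at 1000 nM overlapped those at 100 nM. Its steps were 1.40 (SE 0.13) and, on the deposited scale, 0.89 (adjusted p = 0.021 in limma). TP53I3, a quinone oxidoreductase gene that overlaps FAM228B, was at 4.37, 2.62 and 4.96 and then at 7.82, 6.70 and 7.96 (1.27, SE 0.21; deposited 0.80, adjusted p = 0.028 in limma). These 3 were the members that passed as higher on the deposited scale too.

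The other 10 higher p53 targets passed only once the fall of the median gene was taken out. TNFRSF10D, a decoy receptor for TRAIL, was at 7.42, 6.75 and 9.16 FPKM and then at 13.98, 9.24 and 14.4 (1.11, SE 0.12). CDKN1A, the cyclin-dependent kinase inhibitor p21, was at 135, 121 and 150 and then at 170, 114 and 208, with overlap between the doses before scaling and none after (0.77, SE 0.10, adjusted p = 0.0035 in limma; deposited 0.23, adjusted p = 0.41). ZMAT3, an RNA-binding protein gene, stepped by 0.98 (SE 0.12), FDXR, the adrenodoxin reductase, by 0.78 (SE 0.11) and the death activator BBC3 by 0.71 (SE 0.10). SESN1 (0.66), SESN2 (0.61), SERTAD1 (0.60), BTG2 (0.54) and POLH (0.51) completed the list, with SE between 0.09 and 0.12. The lower gene was MDM2, the ubiquitin ligase that removes p53, at 41.0, 38.5 and 44.1 and then at 24.2, 16.5 and 26.8 (−0.35, SE 0.08, adjusted p = 0.03 in limma). Its gene overlaps CPM, as SESN1 overlaps ARMC2 and POLH overlaps GTPBP2. Without any 1 library 11 or 12 members remained higher by count, 12 without 1000 nM replicate 2. MDM2 lost its call without 100 nM replicate 1 or 3 or 1000 nM replicate 1 or 2.

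Immediate-early genes, which growth factors and stress switch on within minutes, gave 12 higher and 0 lower of 29 tested (limma, 3 lower at an unadjusted p under 0.05). Their median step was 0.41 and their deposited median −0.12. FOS, a subunit of AP-1, was at 9.61, 7.30 and 7.43 FPKM and then at 31.5, 8.39 and 18.8. The doses overlapped before scaling and were apart after it, as the choice of genes required (1.51, SE 0.31, adjusted p = 0.025 in limma). The call was lost in 6 of 15 other settings. GADD45B was at 95.04, 109 and 103 and then at 148, 92.9 and 165 (0.89, SE 0.08). The phosphatase genes DUSP1 (0.77, SE 0.15) and DUSP6 (0.49, SE 0.08), the AP-1 subunit JUNB (0.66, SE 0.13), the growth brake BTG1 (0.60, SE 0.12) and the RNA decay factor ZFP36L1 (0.52, SE 0.08) were higher. So were EGR1 (0.52), IER2 (0.41), IER5 (0.41) and KLF6 (0.40). None of the 12 passed on the deposited scale, where limma called 5 of the 29 lower and 0 higher and 1 higher at an unadjusted p under 0.05. BTG2 stands in this list and among the p53 targets. The higher count on the relative scale was 7 without 1000 nM replicate 3, 12 without 1000 nM replicate 2 and 8 in the fit over the 6 libraries.

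The 12 genes with the most positive steps held others outside both lists. RGS1, which dampens G protein signals in lymphoid cells, was at 48.4, 53.6 and 56.0 FPKM and then at 97.4, 48.0 and 102 (1.09, SE 0.15). HES1, a Notch target repressor, was at 17.8, 18.6 and 13.2 and then at 30.0, 17.6 and 29.1 (1.09, SE 0.15). ID2, an inhibitor of helix-loop-helix factors, stepped by 0.98 (SE 0.12). In these 3 genes 1000 nM replicate 2 lay within or near the 100 nM range before scaling. PHOSPHO2 (1.12, SE 0.27), which shares a readthrough transcript with KLHL23, and C10orf10 (0.89, SE 0.21), which overlaps RASSF4, lost their calls in 7 and 8 of 15 other settings of the relative fit. Of the 12, 9 kept theirs in all 15, and FOS, PHOSPHO2 and C10orf10 did not.

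**Figure D3:**
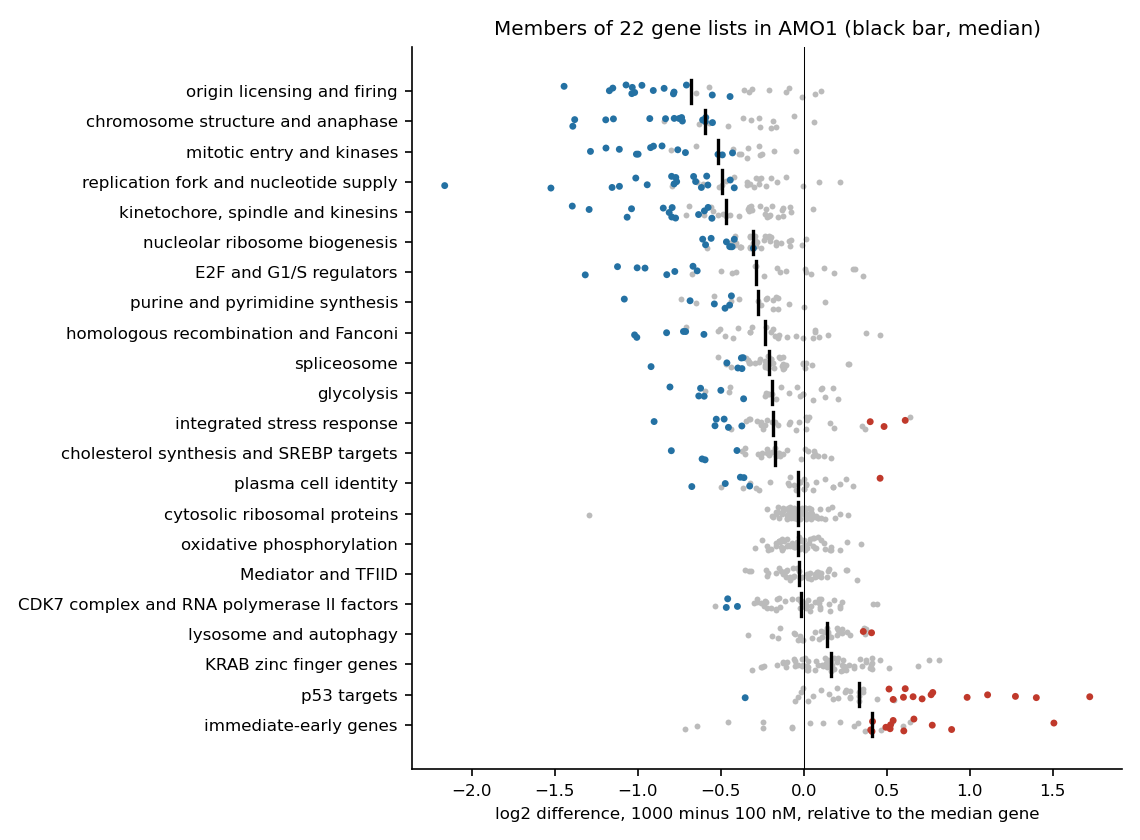
Log2 step relative to the median gene of each tested member of 22 gene lists, 1 point per gene, red or blue where the adjusted p was below 0.05 and grey otherwise, with a black bar at the list's median. The medians run from −0.68 for origin licensing and firing to 0.41 for immediate-early genes.

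The integrated stress response, led by the transcription factor ATF4, was far below DMSO at 100 nM, and part of it fell further at 1000 nM. Its 36 tested members, taken as a list, had a median step of −1.41 from DMSO to 100 nM and of −0.18 from 100 to 1000 nM, a comparison that shares the 100 nM libraries and is given as description. CHAC1, which breaks down glutathione, averaged 62.2 FPKM in DMSO. It was at 2.59, 1.82 and 2.67 at 100 nM and at 1.53, 1.62 and 1.44 at 1000 nM (step −0.04, 95% interval −0.41 to 0.32). INHBE, an activin subunit gene, was at 0.950, 0.998 and 1.32 and then at 0.522, 0.775 and 0.837 (−0.03, −0.38 to 0.32), and CTH, which makes cysteine, at 2.79 ± 0.703 and 1.56 ± 0.101 (−0.19, −0.53 to 0.15). ATF4 was at 145, 135 and 170 and then at 119, 88.8 and 143 (0.16, −0.05 to 0.37). In these 4 genes the scaled doses overlapped. The deposited levels of CHAC1, INHBE and CTH lay lower in every library at 1000 nM, a separation whose share over all genes was not counted. At such low FPKM the pseudocount holds a step near 0, so CHAC1 and INHBE say little about a further fall.

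Of the 36, 6 were lower at 1000 nM and 3 were higher. The lower ones were EIF4EBP1, a brake on cap-dependent translation (−0.90, SE 0.17), the glutamine transporter SLC1A5 (−0.53, SE 0.11), the folate enzyme MTHFD2 (−0.53, SE 0.13), PSAT1 of serine synthesis (−0.48, SE 0.11), the pseudokinase TRIB3 (−0.45, SE 0.09) and PYCR1 of proline synthesis (−0.37, SE 0.07). The higher ones were SESN2, the mTORC1 inhibitor DDIT4 (0.48, SE 0.08) and the factor CHOP (DDIT3, 0.40, SE 0.09), which overlaps MARS1. DDIT4 was at 181, 215 and 194 FPKM and then at 209, 144 and 227, which overlapped on the deposited scale (−0.050, adjusted p = 0.86 in limma). The lower count was 1 without 100 nM replicate 1, 2 without 1000 nM replicate 2, and 3 without 100 nM replicate 2 or 3 or 1000 nM replicate 3. It was 1 in the fit over the 6 libraries and with equal sums. ASNS, asparagine synthetase, did not pass (−0.26, 95% interval −0.49 to −0.02). Its promoter (chr7:97872409-97872508, minus strand, GRCh38.p14) holds the amino acid response motif TGATGNAA, shown in capitals, as did 7 of 31 promoters of the list (22.6%) and 2.53% of all.
ASNS: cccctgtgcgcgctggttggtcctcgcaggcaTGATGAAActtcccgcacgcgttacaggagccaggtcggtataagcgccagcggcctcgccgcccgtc

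**Figure D4:**
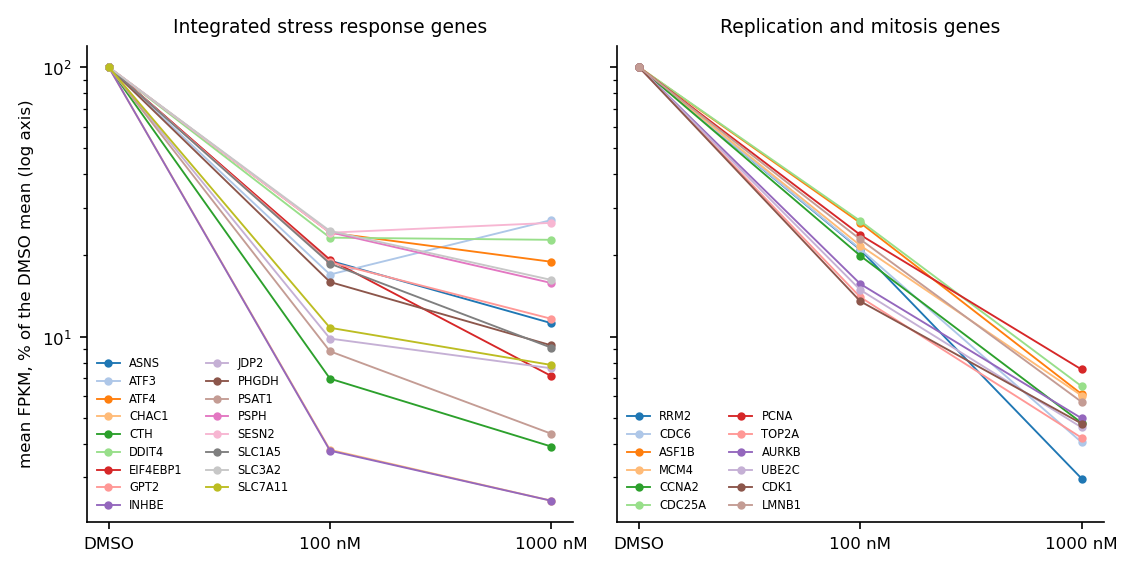
Mean FPKM at each dose as a percent of the DMSO mean (log axis, deposited scale, means of 3 libraries), for stress response genes whose 100 nM mean was less than 1 part in 4 of the DMSO mean and for 12 genes of replication and mitosis. The lines of replication genes drop at both steps. These 12 genes were picked by hand from genes reported as lower, so their drop was fixed by the choice and is no further support. Over the second step the median gene also fell on this scale, by −0.43. The lines of ATF3 and SESN2 run upward and that of DDIT4 nearly level over the second step.

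Genes of cell growth lay moderately below the median gene. In nucleolar ribosome biogenesis 8 of 43 tested were lower and 0 higher (limma, 0 also at an unadjusted p under 0.05), with 42 negative steps and a median of −0.30. Nucleolin (NCL) was at 380, 357 and 360 FPKM and then at 201, 123 and 189 (−0.59, SE 0.07). These deposited values did not overlap, a separation whose share over all genes was not counted. NOLC1 (−0.61, SE 0.09), the methyltransferase gene FBL (−0.47, SE 0.07) and NPM1 (−0.30, SE 0.07) fell as well. With equal sums 3 were lower. Purine and pyrimidine synthesis had 6 of 23 lower and 0 higher (limma, 0 also at an unadjusted p under 0.05), with a median of −0.28. PRPS2, which makes the ribose precursor of nucleotides, was at 21.7, 27.1 and 27.4 and then at 8.14, 5.54 and 10.8 (−1.08, SE 0.11). This list gave 3 without 100 nM replicate 1 or with upper-quartile scaling, 2 in the fit over the 6 libraries or with equal sums, and 2 without 100 nM replicate 2 or 3 or without 1000 nM replicate 3.

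Splicing and translation genes moved less. Of 46 spliceosome genes 6 were lower and 0 higher (limma, 2 higher at an unadjusted p under 0.05), with a median of −0.21. SNRPA, a protein of the U1 particle, was at 95.05, 105 and 95.2 FPKM and then at 46.4, 26.9 and 36.0 (−0.92, SE 0.10). The lower count was 2 in the fit over the 6 libraries and 1 with equal sums. Among splicing regulators SRSF1 (−0.41, SE 0.07) and SRSF3 (−0.46, SE 0.09) were lower and the kinase gene CLK4 was higher (0.59, SE 0.12), in 5 lower and 1 higher of 37. These counts fell to 1 lower and 0 higher without 100 nM replicate 1 or 1000 nM replicate 2 or in the fit over the 6 libraries, and to 1 lower with equal sums. Of 44 translation factors 6 were lower and 0 higher (limma, 2 higher at an unadjusted p under 0.05), with EIF4A1, the helicase of cap-dependent initiation, at −0.54 (SE 0.07). That count was 1 without 100 nM replicate 1 or 1000 nM replicate 2, 3 without 100 nM replicate 3 and 2 without 1000 nM replicate 3. It was 1 in the fit over the 6 libraries, and 2 with equal sums or upper-quartile scaling.

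In metabolism and folding the calls were mostly lower. Glycolysis had 6 of 27 lower and 0 higher (limma, 0 at an unadjusted p under 0.05), led by lactate dehydrogenase A (LDHA, 43.6 ± 9.87 to 17.3 ± 5.599 FPKM, −0.81, SE 0.15) and triosephosphate isomerase (TPI1, −0.60, SE 0.07), which overlaps SPSB2. The fit over the 6 libraries called 2 of that list. Cholesterol genes had 4 of 31 lower and 0 higher (limma, 0 also at an unadjusted p under 0.05), among them INSIG1, a brake on sterol synthesis (52.9 ± 3.84 to 21.3 ± 5.91, −0.80, SE 0.08). That count was 1 without 100 nM replicate 1, in the fit over the 6 libraries or with equal sums. HSPA5, the main chaperone of the endoplasmic reticulum, was at 383, 375 and 386 and then at 203, 132 and 197 (−0.59, SE 0.06), whereas its co-chaperone gene DNAJB9 was higher relative to the median gene (0.49, SE 0.09). Their list had 2 lower and 1 higher of 35 tested, beside 4.18% and 1.67% of all genes. Of 28 heat shock and cytosolic chaperone genes 6 were lower and 0 higher (limma, 1 higher at an unadjusted p under 0.05). Their lower count was 2 to 6 without 1 library, 2 in the fit over the 6 libraries and 1 with equal sums. In lysosome and autophagy 2 of 34 were higher, the autophagy receptor SQSTM1 (0.41, SE 0.07) and the sialidase NEU1 (0.36, SE 0.07), and the median was 0.14. NEU1 lost its call without 100 nM replicate 2 or 3 or 1000 nM replicate 2 or 3. The higher count of this list was 1 in the fit over the 6 libraries, 4 with upper-quartile scaling and 6 with equal sums.

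Several large lists gave no call. Of 77 cytosolic ribosomal protein genes limma called 0 (1 lower and 0 higher at an unadjusted p under 0.05), with a median step of −0.03, and on the deposited scale 29 were lower. Oxidative phosphorylation gave 0 of 52 (3 lower and 2 higher unadjusted in limma) and Mediator and TFIID 0 of 42 (3 lower and 0 higher). KRAB zinc finger genes, a family of repressors, gave 0 of 65, with 9 higher and 0 lower at an unadjusted p under 0.05 in limma and a median of 0.16, with 49 of the 65 steps positive. Among 46 genes of the CDK7 complex and RNA polymerase II the 3 lower were the shared polymerase subunits POLR2E (−0.40, SE 0.07), POLR2F (−0.47, SE 0.08) and POLR2H (−0.46, SE 0.09). This count is near the 4.18% of all genes called lower. None of the 3 was called without 100 nM replicate 1, in the fit over the 6 libraries or with equal sums.

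The target kinase gene itself did not change detectably beyond the median gene. CDK7 was at 11.6, 12.2 and 9.49 FPKM at 100 nM and at 8.05, 6.33 and 6.20 at 1000 nM (step −0.14, 95% interval −0.53 to 0.25). Its gene overlaps CCDC125, and RNA levels do not measure the kinase's activity. CCNH (0.23, −0.10 to 0.56), which overlaps RASA1, MNAT1 (−0.03, −0.49 to 0.43) and the polymerase subunit POLR2A (0.22, 0.04 to 0.40, adjusted p = 0.15 in limma) did not pass either. MYC, the growth regulator often activated in myeloma, was at 39.5, 34.0 and 28.8 and then at 25.6, 6.30 and 16.6. The deposited step passed (−1.21, adjusted p = 0.029 in limma) and the relative step did not (−0.72, SE 0.29, adjusted p = 0.18), though it passed without 1000 nM replicate 1. MCL1, the survival protein of plasma cells, stepped by −0.07 (95% interval −0.27 to 0.12), and the drug efflux pump gene ABCB1 by 0.22 (−0.08 to 0.52).

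Plasma cell identity genes had a median step close to that of all genes, with part of them lower. Of 32 tested 5 were lower, a larger share than the 4.18% of all genes. Only 1 was higher, and the median was −0.04. The surface markers SDC1 (0.00, SE 0.07) and CD38 (0.01, SE 0.11), the antibody joining chain JCHAIN (−0.02, SE 0.08) and the coactivator POU2AF1 (−0.05, SE 0.09) did not pass. Neither did SLAMF7 (−0.36, SE 0.15) or PRDM1 (0.26, SE 0.08), which lay further from 0. IRF4 was at 46.3, 41.8 and 46.5 FPKM and then at 28.8, 17.9 and 26.6 (−0.36, SE 0.08, adjusted p = 0.031 in limma), a call lost without 100 nM replicate 1 or 3 or 1000 nM replicate 2 or 3. It was one of the 5 lower genes, beside the histone methyltransferase gene WHSC1 (−0.67, SE 0.13), MZB1 of antibody folding (−0.47, SE 0.08), the survival receptor TNFRSF17 (−0.38, SE 0.09), which overlaps NPIPB2, and XBP1 of the secretory programme (−0.33, SE 0.08). The T cell costimulator CD28 was the higher one (0.46, SE 0.11). The lower count was 0 without 100 nM replicate 1, 3 without 100 nM replicate 2 or 1000 nM replicate 1, and 2 without 100 nM replicate 3 or 1000 nM replicate 2. It was 1 in the fit over the 6 libraries, with the replicate block or with equal sums, and 2 with upper-quartile scaling. CD28 was not called without any 1 library other than 1000 nM replicate 1.

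Genes of immunity and of other cell types gave few calls. ISG15, an interferon-induced ubiquitin-like protein, was at 96.6, 93.7 and 89.4 FPKM and then at 34.7, 26.2 and 43.8 (−0.90, SE 0.10), 1 of 2 lower among 21 interferon genes. The other was the immunoproteasome subunit PSMB9 (−0.39, SE 0.07), which was not called with equal sums. NFKBIA, the inhibitor of NF-kB, was the only call among 26 genes of that pathway (0.49, SE 0.07). The class II activator CIITA (−0.68, SE 0.17) and HLA-DMA (−0.59, SE 0.11) were lower, and CIITA lost its call without any 1 library except 1000 nM replicate 2. In the BCL2 and death receptor list BIK (−0.50, SE 0.12) and cytochrome c (CYCS, −0.46, SE 0.07) were lower and BBC3 and TNFRSF10D higher, of 31. BIK lost its call without any 1 library except 1000 nM replicate 1. Vimentin (VIM), which lymphoid cells also make, was the 1 call of the stromal list (−0.73, SE 0.12). Of 22 erythroid markers 13 stayed under 1 FPKM in every AMO1 library. The summed erythroid level ran from 264 to 285 FPKM at 100 nM and from 136 to 209 at 1000 nM. This is the deposited scale, where the sum of all genes fell too, and GYPC made up most of it (means of 176 and 127 FPKM). The 8 tested members had a median relative step of −0.08. Among them HBB was higher (0.667 ± 0.354 to 2.18 ± 0.653, step 1.30, SE 0.26) and the transferrin receptor TFRC lower (−0.66, SE 0.13). At 100 nM the mean of HBB and all 3 values of CD247 lay under the 1 FPKM of the filter, so between the 2 doses both genes pass it mainly through the group in which they are high, and their calls are no support for a difference. HBB lost its call without 100 nM replicate 2 or 3 or 1000 nM replicate 1 or 2. CD247, a T cell receptor chain gene, went from 0.790 ± 0.148 to 1.94 ± 0.359 (1.08, SE 0.21, not called without 100 nM replicate 1 or 2 or 1000 nM replicate 2 or 3), while 15 of the 19 T and NK cell markers stayed under 1 FPKM throughout. The part of other cells in these results was not tested.

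The same dose step in the line labelled XG1 shares no library with the AMO1 step and gives a test of whether the 2 steps differ. Among 12792 genes tested 27 had a more negative step in AMO1 (0.211%) and 12 a more positive one (0.0938%), and 1625 had an unadjusted p under 0.05 for the difference in limma. The 39 became 17, 25 and 22 without AMO1 100 nM replicates 1, 2 and 3, and 23, 24 and 25 without XG1 1000 nM replicates 1, 2 and 3. The XG1 step itself gave 286 lower (2.24%) and 151 higher genes (1.18%). The libraries labelled XG1 held plasma cell genes at low levels in DMSO, with SDC1 at 24.2 FPKM and IRF4 at 0.533 against 5067 and 77.5 in AMO1. The label and the line's identity are therefore uncertain. In this joint fit RRM2 stepped by −2.22 in AMO1 and −0.84 in XG1, a difference of −1.39 (SE 0.15, adjusted p = 0.00034 in limma). CDCA7 stepped by −1.92 and −0.06 and differed by −1.86 (SE 0.27). In XG1 it was at 43.6 FPKM at 100 nM and 41.7 at 1000 nM, and its step there did not pass (adjusted p = 0.92 in limma).

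Cyclin E1 (CCNE1) went from 39.9 ± 4.46 to 13.8 ± 4.82 FPKM in AMO1 and from a mean of 39.7 to 48.7 in XG1, and the steps differed by −1.34 (SE 0.22). HSPA5 (−0.76, SE 0.10) and PRPS2 (−1.15, SE 0.18) also differed. In the other direction GDF15 stepped by 1.69 in AMO1 and 0.26 in XG1, where it had already gone from 103 FPKM in DMSO to 239.8 at 100 nM. HIST1H1C was higher in AMO1 (0.66) and lower in XG1 (−0.69, adjusted p = 0.0066 in limma), a difference of 1.35 (SE 0.18). The median steps of the mitotic entry, kinetochore and chromosome lists were −0.55, −0.52 and −0.63 in AMO1 and −0.71, −0.70 and −0.64 in XG1, differences that were not tested as lists. In origin licensing the medians were −0.72 and −0.26, with 2 of 26 genes differing, CDC6 and MCM4. In XG1 the p53 target median was −0.01, against 0.32 in AMO1, with 3 of 37 genes differing. One of these, TNFRSF10D, was under 1 FPKM in all 3 XG1 groups on average, so its XG1 step is held near 0 by the pseudocount and its difference says nothing about XG1.

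**Figure D5:**
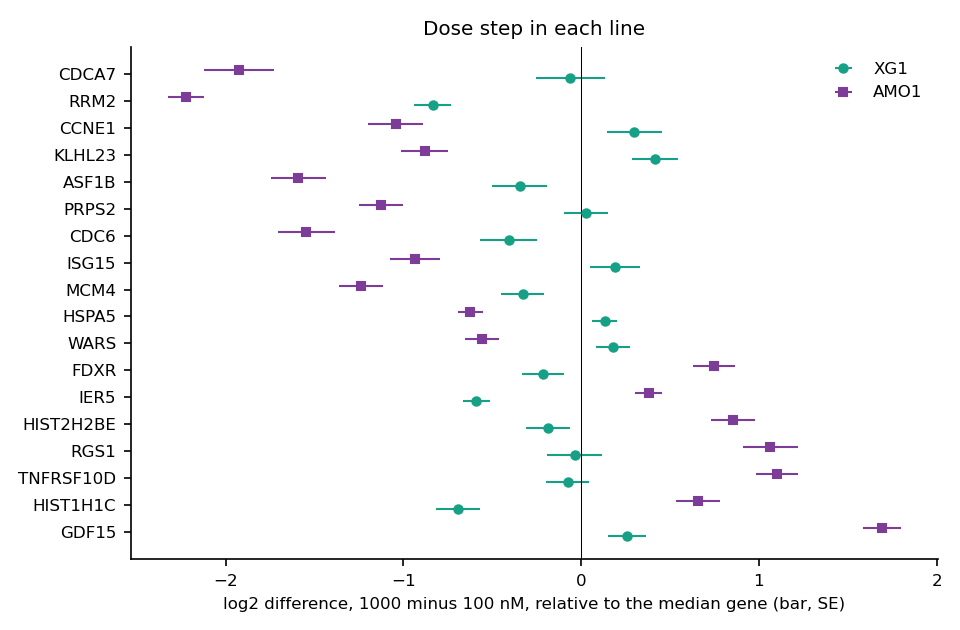
Log2 step from 100 to 1000 nM relative to the median gene in XG1 (green circles) and AMO1 (purple squares) from the fit over 18 libraries, bars showing the SE, for the 18 named genes whose steps differed at an adjusted p below 0.05. CDCA7, RRM2 and CCNE1 lie furthest to the left in AMO1 relative to XG1, and GDF15 and HIST1H1C furthest to the right.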

How the data were processed

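The authors deposited gene-level FPKM values made with HISAT2 and Cuffnorm on hg19, per the submitters' processing notes; tool versions, strand setting and read depth are not given in the sources used here. Values carried no zeros, and each library had its own floor. The summed levels of the spike-in RNAs were nearly equal across libraries, so the deposited scale may already be set to them. Spike-in entries (92) were left out, leaving 26249 genes, of which 25146 symbols (95.8%) matched RefSeq.

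From these values log2(FPKM + 1) was fitted with limma 3.58.1 (trend) in R 4.3.3 over the 9 AMO1 libraries, which share one estimate of the spread, keeping genes that reached 1 FPKM in 3 or more libraries. The relative scale divides by median-ratio size factors. The difference between lines was fitted over 18 libraries. The fits were tested on simulated data without size factors and without a shift of all genes. That test therefore does not cover the scaling of the relative scale. Figures used Python 3.11.15 with matplotlib 3.10.9.

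Named genes were the 12 with the most negative and most positive relative steps (protein-coding, adjusted p below 0.05, no overlap, at least 5 FPKM at one dose), the 3 of smallest adjusted p and the 1 of largest step in each of 43 lists, regulators such as CDK7 and MYC, the 5 largest differences between lines in each direction, and stress response genes at less than 1 part in 4 of DMSO at 100 nM. Others, among them CDT1, MKI67, DUSP1 and MDM2, were named after their values were seen. Members and lists were chosen with earlier results of these data known. Gene overlaps are by name in RefSeq. Some genes that the rule names are not reported here.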

Additional observations from a re-analysis of the deposited data

Results flagged for a closer look

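For 18 named genes the step from 100 to 1000 nM differed between AMO1 and the line labelled XG1 by a test of the difference itself (limma, adjusted p below 0.05, relative scale). Replication genes made up part of those with a more negative step in AMO1. The differences were −1.86 for CDCA7, −1.39 for RRM2, −1.24 for ASF1B, −1.14 for CDC6, −0.91 for MCM4 and −1.34 for the cyclin gene CCNE1. The nucleotide enzyme gene PRPS2 differed by −1.15, ISG15 by −1.13, the chaperone gene HSPA5 by −0.76 and the tryptophanyl-tRNA synthetase gene WARS by −0.74. KLHL23, which shares a readthrough transcript with PHOSPHO2, differed by −1.30.

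More positive steps in AMO1 were seen for the p53 targets GDF15 (1.43), TNFRSF10D (1.18) and FDXR (0.96), for the histone genes HIST1H1C (1.35) and HIST2H2BE (1.04), and for RGS1 (1.10) and IER5 (0.97). IER5 stepped by 0.38 in AMO1 and −0.59 in XG1. RGS1 and TNFRSF10D were under 1 FPKM on average in the libraries labelled XG1, so their steps there are held near 0 by the pseudocount. CDCA7, RRM2, CCNE1, KLHL23, PRPS2 and HSPA5 kept their call under all 16 other settings run for the difference. RGS1 lost it in 12, CDC6 in 10, WARS in 9, MCM4 in 8, ISG15 in 6, ASF1B and FDXR in 4, HIST2H2BE in 3, TNFRSF10D in 2, and GDF15, HIST1H1C and IER5 in 1, the deposited scale.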

How the results depend on the processing

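The relative scale gave 614 called genes. A fit over only the 6 libraries called 212, of which 210 were among the 614, and fits without any 1 library called 299 to 534. The deposited scale gave 2482, and there 716 were counted with no filter on low values, 890 with the 6 libraries and 440 (without 100 nM replicate 3) to 3361 (without 1000 nM replicate 3) when 1 library was left out. The replicate block gave 433 genes on the relative scale and 1461 on the deposited one. Same-numbered libraries of the 2 doses did not deviate together (correlations of 0.12, −0.07 and 0.02), so the numbers were not taken as pairs. The difference between lines, 39 genes, came to 63 with a filter of 5 FPKM, 21 with the replicate block and 17 (without AMO1 100 nM replicate 1) to 53 when 1 library was left out. The 1000 nM sum was 59.2% to 72.7% of the 100 nM sum. Only the 214 named genes, not all the genes called higher, were checked for a change of sign on the deposited scale. Among them 11 that were higher relative to the median gene turned negative without passing: DDIT4 (−0.050), DNAJB9 (−0.026), IER2 (−0.12), NFKBIA (−0.039), SQSTM1 (−0.13), NEU1 (−0.17), KLF6 (−0.12), IER5 (−0.12), DUSP6 (−0.027), DDIT3 (−0.12) and CD28 (−0.023). That scale keeps the shift of −0.43 of the median gene. Depth is unknown, so no counting interval can be given.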
